A study of Mus musculus with 43 samples.

Results

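A set of 9 cytokine and chemokine genes that gut epithelial cells can make was followed by gene symbol: Il1rn, Il33, Il18, Il1a, Cxcl1, Cxcl16, Ccl20, Cxcl5 and Tslp. All 9 were found among the 23951 genes of each bulk expression table and among the 54307 gene rows of each single-cell library. The study treated mouse small-intestinal epithelium with TGFB1, a secreted signal of tissue repair, with and without ionizing radiation. Bulk RNA came from primary intestinal organoids, which are epithelial buds grown in gel, of wild-type C57BL/6 mice. There were 3 states: D7 non-IR (harvest at day 7, no radiation), D7 IR (4 Gy at day 4, harvest at day 7) and D11 IR (the same dose, harvest at day 11). For each, 3 vehicle libraries and 3 libraries of cultures with TGFB1 at 2 ng/mL were made, both agents being added on day 6 for 24 h, so the D11 organoids were collected days after the treatment had ended. Single cells came from wild-type C57BL/6 organoids irradiated with 4 Gy on day 4 and harvested on day 8 after 6, 15 or 24 h of 1 ng/mL TGFB1, or after vehicle (called 0 h), with 1 library each. They also came from Ki67-RFP+ crypt cells, a sort for dividing cells, of the reporter strain Mki67tm1.1Cle/J: 1 library without irradiation and 2 libraries 56 h after 12 Gy to the whole body. Per the labels, a coarser strainer was used for the irradiated crypts than for the controls.

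Epithelial cells use these secreted proteins to report damage and to call leukocytes. Interleukin 1 alpha, interleukin 18 and interleukin 33 belong to the IL-1 family, which signals through MyD88 to NF-kB, and the product of Il1rn is the natural antagonist of the IL-1 receptor. The chemokines of the set draw neutrophils (CXCL1 and CXCL5), CXCR6-bearing T cells (CXCL16) and CCR6-bearing lymphocytes and dendritic cells (CCL20), and TSLP is an epithelial cytokine of type 2 immunity.

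The 250 bases before the start site are shown for Il1rn, Ccl20 and Il33, whose TGFB1 responses differed most between states, and for Cxcl1, whose window holds an NF-kB match. The sequences are RefSeq's, on build GRCm38.p6, written 5′ to 3′ on the gene's strand. RefSeq windows were used for 6 of the 9 symbols. The search for members left out a whole chromosome, so the lack of a window need not mean that none existed. Capitals mark matches, on either strand, to an NF-kB motif (GGGA and TTCC with 2 bases of any kind between them, or GGGANTTCC) or an AP-1 motif (TGANTCA).
Cxcl1, chr5:90890995-90891244, plus strand: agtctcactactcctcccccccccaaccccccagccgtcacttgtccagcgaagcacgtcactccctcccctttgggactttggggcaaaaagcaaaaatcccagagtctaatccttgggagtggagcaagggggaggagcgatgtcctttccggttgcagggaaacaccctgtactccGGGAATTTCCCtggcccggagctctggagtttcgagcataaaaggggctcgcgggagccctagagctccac
Il1rn, chr2:24336610-24336859, plus strand: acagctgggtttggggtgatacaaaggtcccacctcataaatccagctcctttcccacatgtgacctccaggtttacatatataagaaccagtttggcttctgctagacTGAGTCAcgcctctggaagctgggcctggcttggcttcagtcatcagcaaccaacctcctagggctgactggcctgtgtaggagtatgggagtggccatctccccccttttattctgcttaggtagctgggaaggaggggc
Ccl20, chr1:83116516-83116765, plus strand: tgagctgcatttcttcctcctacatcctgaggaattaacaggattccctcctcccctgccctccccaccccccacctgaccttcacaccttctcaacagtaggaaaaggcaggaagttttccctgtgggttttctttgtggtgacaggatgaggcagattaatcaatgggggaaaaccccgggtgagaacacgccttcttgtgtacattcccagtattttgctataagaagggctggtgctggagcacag
Il33, chr19:29924863-29925112, plus strand: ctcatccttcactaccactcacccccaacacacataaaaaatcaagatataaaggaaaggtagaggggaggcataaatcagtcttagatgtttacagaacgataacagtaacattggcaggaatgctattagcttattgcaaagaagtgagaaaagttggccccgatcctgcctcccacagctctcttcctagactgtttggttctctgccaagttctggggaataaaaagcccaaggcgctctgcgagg

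In Cxcl1, the longer NF-kB form matched on the plus strand from 71 to 62 bases before the start and, overlapping it by all but 1 base, on the minus strand from 70 to 61. In Il1rn, TGANTCA matched as TGAGTCA from 141 to 135 bases before the first of its annotated starts, and in Il1a as TGACTCA from 12 to 6 bases before a start that is not the gene's outermost one. The windows shown for Ccl20 and Il33, and that of Il18, held none of these letters, nor the SMAD motif GTCTAGAC. Of all 32851 windows of this length, 1.21% held the longer NF-kB form, 1.43% GGGANTTCC, 6.75% TGANTCA and 0.167% GTCTAGAC. A match describes the letters only.

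The 18 bulk libraries held 11040 to 11361 genes above 1 FPKM (fragments per kilobase of transcript, scaled for library size), and their read depth is unknown. Of 6 TGFB response genes tested, 5 rose and 1 fell in each state: Pmepa1 was higher by 4.31, 4.46 and 3.92 on the log2(FPKM + 1) scale at D7 non-IR, D7 IR and D11 IR, and Tgfbi was lower (-1.16, -0.36 and -2.44). Mesenchymal and endothelial markers hardly reached the mean of 1 FPKM needed for a test (at most 1 of 9 and 0 of 4), and 3 of the 16 immune markers in the tables reached it in each state. Of these, Cd68 was higher with TGFB1 at D7 non-IR (1.26) and D7 IR (0.40), and Lyz2 at D7 IR (1.36) and D11 IR (0.96), while Itgam was lower at D7 non-IR (-0.56) and Kit at D7 IR (-0.24) and D11 IR (-0.39). Their part in the results was not tested. All 7 epithelial markers were tested in each state. In bulk RNA, more cells making a transcript and more transcript per cell cannot be told apart. Nothing in the labels says that replicates came from separate cultures, so the p-values measure the spread between these libraries, which may be technical. All tests below are limma on log2(FPKM + 1), two-sided, with Benjamini-Hochberg adjustment over all genes tested, and this scale understates changes of low genes.

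TGFB1 raised most of the set in every state, and lowered Il18 and Ccl20 in non-irradiated organoids. At D7 non-IR, 7 members were tested, of which 5 rose and 2 fell, against 33.3% of all tested genes that rose and 34.9% that fell. At D7 IR 6 of 7 rose and none fell, against 35.8% and 39.7% of all genes, and at D11 IR 8 of 8 rose, against 32.3% and 31.6%. The median difference over the tested members was 1.38, 1.78 and 1.32 on the log2 scale in the same order, beside -0.02, -0.03 and 0.01 over all genes. Il1a and Cxcl1 in all 3 states, and Il33 and Cxcl5 at D11 IR, averaged under 1 FPKM with vehicle and so were tested because of their TGFB1 libraries. The counts therefore describe the members and lend no weight to a direction. The remaining members at each state, Cxcl5 at D7 and Tslp throughout, were under the filter.

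**Figure D1:**
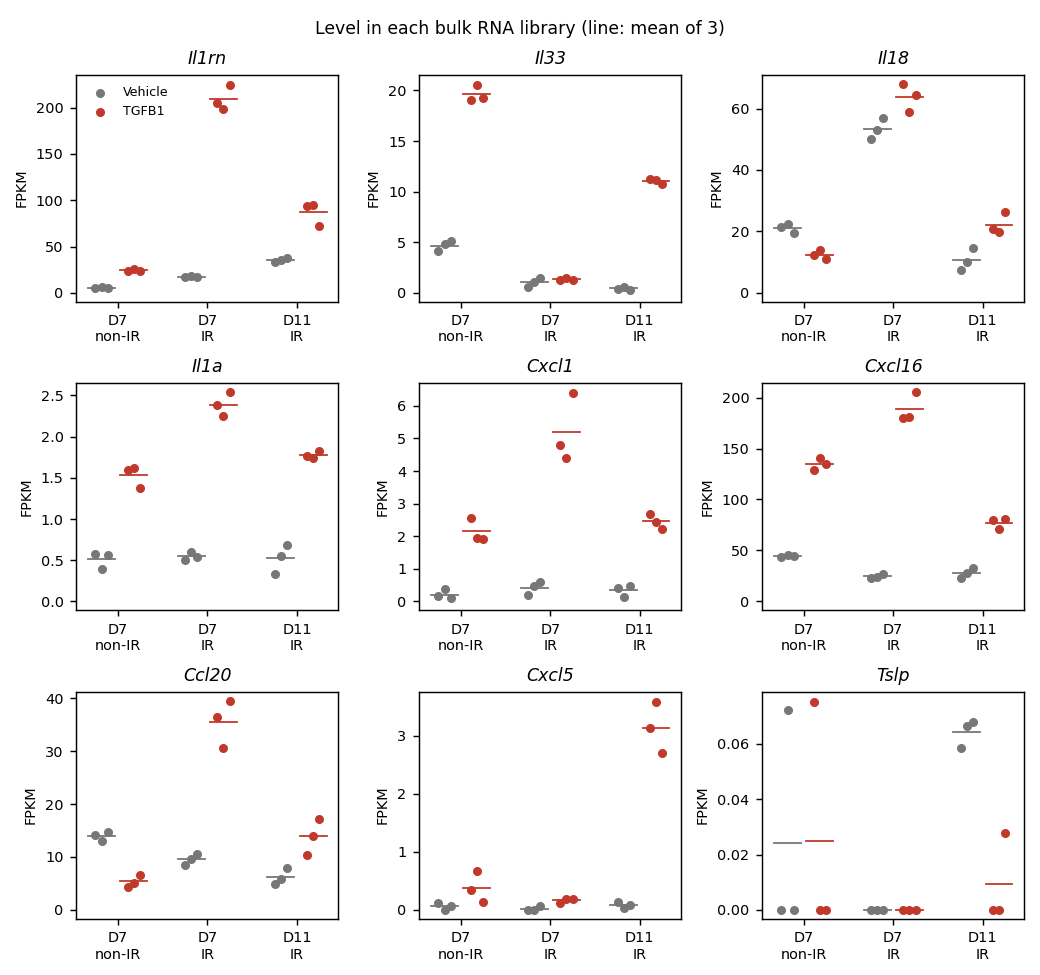
Level of each of the 9 genes in the 18 bulk RNA libraries (vertical axis, FPKM, a separate linear scale for each gene; grey, vehicle; red, TGFB1; line, mean of 3 libraries). The TGFB1 libraries of Il1rn reach 225 FPKM at D7 IR, while those of Il33 stay between 1.23 and 1.46 FPKM there.

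Il1rn, the receptor antagonist, rose in all 3 states and most in freshly irradiated organoids. At D7 non-IR it measured 5.42, 6.43 and 5.43 FPKM with vehicle and 24.0, 25.2 and 23.9 FPKM with TGFB1. At D7 IR the vehicle libraries read 17.0, 18.01 and 16.9 FPKM and the TGFB1 libraries 204, 199 and 225 FPKM. At D11 IR they read 32.9, 35.9 and 37.6 FPKM against 93.5, 95.3 and 71.8 FPKM. The groups did not overlap in any state, and D7 IR with TGFB1 was the highest of all 6 groups. The TGFB1 means were 4.23, 12.1 and 2.45 times the vehicle means (n = 3 each), and the differences 1.91, 3.52 and 1.26 on the log2(FPKM + 1) scale (limma adjusted p 7.54e-10, 1.24e-11 and 8.29e-06). With vehicle alone, the D7 IR mean was 3.00 times that of D7 non-IR and the D11 IR mean 2.05 times that of D7 IR, with no overlap. Vehicle levels across states are levels only, without a test, because the states came in 3 tables whose common scaling is not stated in the sources used here. For reading such levels, a 2-fold or greater gap without overlap was seen upward in 8.02% and downward in 7.43% of genes from D7 non-IR to D7 IR, and in 3.44% and 3.38% from D7 IR to D11 IR.

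Il33, a nuclear alarmin released from damaged barrier cells, showed the reverse order of responses. At D7 non-IR its level was 4.12, 4.81 and 5.09 FPKM with vehicle and 19.0, 20.6 and 19.2 FPKM with TGFB1. D7 IR libraries held 0.562, 1.06 and 1.49 FPKM with vehicle and 1.29, 1.46 and 1.23 FPKM with TGFB1. By D11 IR the vehicle libraries held 0.388, 0.612 and 0.321 FPKM and the TGFB1 libraries 11.3, 11.1 and 10.7 FPKM. Treated and control libraries were far apart at D7 non-IR and D11 IR, and overlapped at D7 IR. The log2 differences were 1.86, 0.22 and 3.07 (limma adjusted p 1.66e-09, 0.218 and 3.86e-08). The ratios of mean FPKM, without the added 1, were 4.20 at D7 non-IR and 25.1 at D11 IR. Without D7 IR vehicle replicate 3, the library with the highest control level, the D7 IR difference was 0.37 with an adjusted p of 0.0306 in limma. In vehicle organoids the mean was 4.50-fold lower at D7 IR than at D7 non-IR, with no overlap, and the D11 IR and D7 IR vehicle libraries overlapped.

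Il18, a cytokine that caspase-1 cuts into its active form, fell with TGFB1 in organoids that had not been irradiated. There it read 21.5, 22.5 and 19.6 FPKM with vehicle and 12.3, 14.0 and 11.2 FPKM with TGFB1, a 1.70-fold lower mean. D7 IR levels were 50.1, 53.1 and 57.0 FPKM with vehicle and 68.0, 59.0 and 64.5 FPKM with TGFB1. D11 IR levels were 7.49, 10.0 and 14.8 FPKM against 20.7, 19.8 and 26.2 FPKM. No state had overlapping groups, but the margin at D7 IR was the gap between 57.0 and 59.0 FPKM. The log2 differences were -0.72, 0.25 and 1.02 (limma adjusted p 1.17e-05, 0.00316 and 0.00593). With all 18 libraries in 1 limma fit, the D7 IR difference had an adjusted p of 0.185. With vehicle, the level was 2.52 times higher at D7 IR than at D7 non-IR and 4.96-fold lower at D11 IR than at D7 IR, without overlap in either case. In RefSeq, Bco2, a carotenoid-cleaving enzyme, overlaps Il18, and no source used here gives whether counting used strand. Bco2 read 10.4, 10.7 and 11.3 FPKM with vehicle and 6.99, 7.38 and 6.64 FPKM with TGFB1 at D7 non-IR, 35.9, 33.3 and 33.7 against 31.0, 30.5 and 27.9 FPKM at D7 IR, and 12.8, 15.5 and 18.5 against 5.90, 5.25 and 8.12 FPKM at D11 IR. With TGFB1 it was lower in all 3 states, as Il18 was at D7 non-IR and unlike Il18 at D7 IR and D11 IR. With vehicle, it was highest at D7 IR, as Il18 was. Its part in the Il18 values was not tested.

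Il1a, the alarmin that Il1rn's product competes with, stayed low throughout and rose with TGFB1 in each state. The vehicle libraries of the 3 states ranged from 0.334 to 0.690 FPKM and the TGFB1 libraries from 1.38 to 2.54 FPKM. The groups of each state were separate, with the highest values at D7 IR (2.38, 2.25 and 2.54 FPKM). The differences were 0.74, 1.13 and 0.87 on the log2 scale at D7 non-IR, D7 IR and D11 IR (limma adjusted p 3.38e-05, 5.32e-07 and 0.000138). Vehicle levels overlapped between the states. On linear means, Il1rn exceeded Il1a by far in every group of libraries, with 209 against 2.39 FPKM at D7 IR with TGFB1.

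Among the 4 chemokines of the set, Cxcl16, a transmembrane chemokine that can be shed by ADAM10, had the highest FPKM in every group. At D7 non-IR it measured 43.1, 45.5 and 44.4 FPKM with vehicle and 129, 141 and 135 FPKM with TGFB1. The D7 IR libraries read 23.4, 23.8 and 26.5 FPKM against 180, 181 and 205 FPKM. At D11 IR the values were 23.0, 28.3 and 33.0 FPKM against 79.8, 71.0 and 81.2 FPKM. All 9 TGFB1 libraries lay above all 9 vehicle libraries. The means were 3.05, 7.69 and 2.75 times the vehicle means, and the differences 1.59, 2.89 and 1.44 on the log2(FPKM + 1) scale (limma adjusted p 1.04e-10, 1.65e-10 and 5.43e-06). With vehicle the level was 1.81-fold lower at D7 IR than at D7 non-IR without overlap, and the D11 IR and D7 IR vehicle libraries overlapped. Zmynd15, which overlaps Cxcl16 in RefSeq, reached at most 2.23 FPKM.

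Ccl20, the ligand of CCR6, moved in opposite directions with TGFB1 in non-irradiated and irradiated organoids. At D7 non-IR the level was 14.2, 13.1 and 14.8 FPKM with vehicle and 4.42, 5.18 and 6.62 FPKM with TGFB1. At D7 IR it was 8.44, 9.71 and 10.6 FPKM with vehicle and 36.4, 30.5 and 39.5 FPKM with TGFB1. D11 IR libraries read 4.84, 5.79 and 7.85 FPKM against 10.4, 14.0 and 17.2 FPKM. The mean was 2.59-fold lower with TGFB1 at D7 non-IR, and 3.70-fold and 2.25-fold higher at D7 IR and D11 IR, with no overlap in any state. The log2 differences were -1.24, 1.78 and 1.05 (limma adjusted p 9.35e-06, 3e-07 and 0.0019). The vehicle mean was 1.46-fold lower at D7 IR than at D7 non-IR and 1.56-fold lower at D11 IR than at D7 IR, both without overlap.

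The neutrophil chemokines Cxcl1 and Cxcl5 were low in control organoids. Cxcl1 vehicle libraries ranged from 0.101 to 0.610 FPKM, and TGFB1 libraries read 2.57, 1.95 and 1.93 FPKM at D7 non-IR, 4.81, 4.40 and 6.39 FPKM at D7 IR, and 2.69, 2.45 and 2.23 FPKM at D11 IR. The groups were separate in each state, with differences of 1.38, 2.13 and 1.38 on the log2 scale (limma adjusted p 1.41e-06, 3.18e-07 and 1.14e-05). Cxcl5 behaved otherwise. It read 0.145, 0.0291 and 0.0893 FPKM with vehicle and 3.14, 3.58 and 2.71 FPKM with TGFB1 at D11 IR, a 35.9-fold higher mean and a log2 difference of 1.93 (limma adjusted p 7.6e-07). At D7 the highest Cxcl5 library of any group was 0.669 FPKM, under the filter. At D7 non-IR the vehicle libraries read 0.122, 0 and 0.0623 FPKM and the TGFB1 libraries 0.336, 0.669 and 0.137 FPKM. At D7 IR they read 0, 0 and 0.0598 FPKM with vehicle and 0.127, 0.186 and 0.192 FPKM with TGFB1. TGFB1 libraries were above vehicle libraries in both, with an exact permutation p of 0.1 for each, two-sided, the smallest that 3 against 3 can give.

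Tslp was close to the floor of the bulk data. No library exceeded 0.0751 FPKM, and all 6 D7 IR libraries were listed at 0. At D11 IR the vehicle libraries read 0.0585, 0.0663 and 0.0679 FPKM and the TGFB1 libraries 0, 0 and 0.0280 FPKM, which did not overlap (exact permutation p 0.1, two-sided). In the single-cell libraries it had at most 6 UMIs, in the non-irradiated crypt library.

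**Figure D2:**
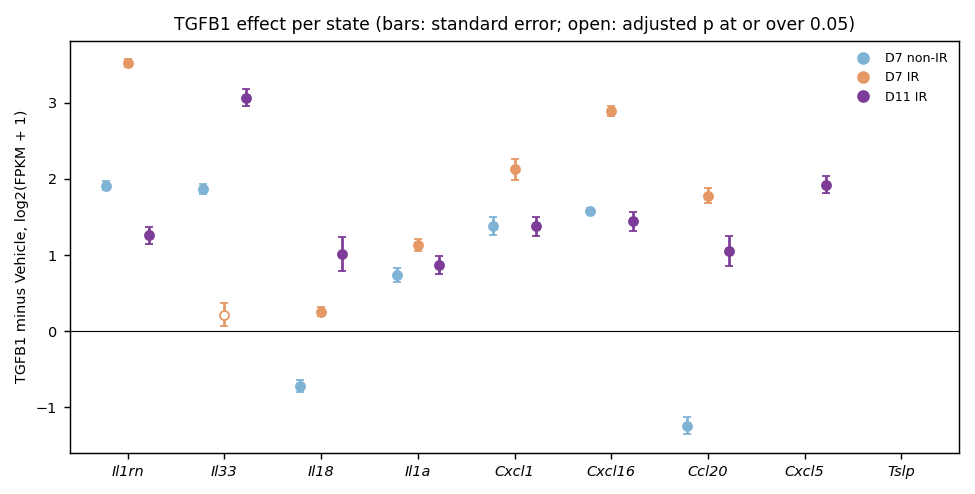
TGFB1 minus vehicle on the log2(FPKM + 1) scale (vertical axis) for each gene and state; bars are standard errors from limma, open points have an adjusted p of at least 0.05, and members under the filter have no point. Il18 and Ccl20 lie below 0 at D7 non-IR (-0.72 and -1.24) and above it at D7 IR and D11 IR, and Il33 at D7 IR is the open point (0.22).

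The size of the TGFB1 effect differed between D7 IR and D7 non-IR for all 7 members that could be tested at D7. Each state was deposited separately, so irradiation, or day in the later term, cannot be told apart from a batch. The term, the effect at D7 IR minus that at D7 non-IR over the 12 D7 libraries, was higher for 6 and lower for 1, against 25.3% and 27.8% of all genes tested. It was largest for Ccl20 (3.02, limma adjusted p 2.82e-08), followed by Il1rn (1.61, 2.59e-09), Cxcl16 (1.31, 1.12e-08), Il18 (0.98, 4.74e-06), Cxcl1 (0.74, 0.00564) and Il1a (0.39, 0.00953). Il33 alone was negative, at -1.65 (limma adjusted p 4.45e-06). The terms of Cxcl1 and Il1a, the lowest of the 7 in FPKM, had limma adjusted p-values of 0.428 and 0.0618 with a pseudocount of 0.1 FPKM in place of 1. Both genes averaged under 1 FPKM with vehicle in each state and were tested because of their TGFB1 libraries. The counts of this term therefore describe the members and lend no weight to a direction.

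From D7 to D11 the TGFB1 effect in irradiated organoids shrank for Il1rn, Cxcl16, Cxcl1 and Ccl20 and grew for Il33 and Il18. The term, D11 IR minus D7 IR over the 12 irradiated libraries, was lower for 4 and higher for 2 of 7 members tested, against 33.0% and 31.5% of all genes. It was -2.26 for Il1rn, -1.45 for Cxcl16, -0.75 for Cxcl1 and -0.73 for Ccl20 (limma adjusted p 8.75e-09, 1.67e-06, 0.00518 and 0.0254), and 2.85 for Il33 and 0.76 for Il18 (3.43e-08 and 0.0246). Il1a had -0.26 with an adjusted p of 0.112 in limma. This term and that of irradiation both use the 6 D7 IR libraries, so their values are not independent. Il1a and Cxcl1 averaged under 1 FPKM with vehicle on both days, and Il33 at D11 IR. These genes were tested because of their TGFB1 libraries, so the counts describe the members and lend no weight to a direction. The Cxcl1 term had an adjusted p of 0.173 in limma with a pseudocount of 0.1 FPKM, and the Ccl20 term 0.0638 after quantile normalization. The terms of Ccl20 and Il18 sat near the threshold. In limma, the adjusted p for Ccl20 was 0.0615 without D7 IR vehicle replicate 1, 0.0505 and 0.0592 without D7 IR TGFB1 replicates 1 and 3, and 0.0517 without D11 IR vehicle replicate 3. The adjusted p for Il18 was 0.0541 without D7 IR vehicle replicate 3, 0.0543 without D7 IR TGFB1 replicate 2, 0.0522 without D11 IR vehicle replicate 2 and 0.0585 without D11 IR TGFB1 replicate 3. Without D11 IR vehicle replicate 1, Il1a had -0.35 with an adjusted p of 0.0215 in limma.

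Over the 18 bulk libraries, Il1a and Cxcl1 had the most alike profiles within the set (Pearson r 0.968), followed by Il1a with Cxcl16 (0.918) and Cxcl1 with Cxcl16 (0.903). Il33 stood apart from Il1rn (-0.10) and Il18 (-0.36). Of 10823 genes averaging 1 FPKM or more in each table, those most like each member were Rela for Il1rn (0.989), Perp for Cxcl16 (0.992), Itga5 for Il1a (0.989), Arid5a for Cxcl1 (0.984), Spink3 for Il18 (0.985), Ppp2r1b for Il33 (0.960) and Sptan1 for Ccl20 (0.897). These values are descriptions. The points share 6 groups and 3 tables, so any gene with the same order of groups scores high.

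The genes around these members were described by lists. Of 22 NF-kB pathway genes, 15 rose and 1 fell at D7 non-IR (median 0.27 on the log2 scale), 17 rose and 2 fell at D7 IR (0.69), and 10 rose and 5 fell at D11 IR (0.10). The shares of all genes that rose and fell, given above for the members, were 33.3% and 34.9%, 35.8% and 39.7%, and 32.3% and 31.6%, so the D11 IR count lies nearest to them. At D7 IR the largest changes were in Tnfaip3, the A20 inhibitor (1.90), Bcl3, a nuclear IkB protein (1.78), Nfkb2, the p100 precursor (1.57), and Nfkbia, which encodes IkB alpha (1.29). At D11 IR Bcl3 was still higher (1.09), while Relb, the non-canonical partner subunit, was lower (-1.07).

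Other cytokines were mostly under the filter, with 5, 7 and 7 of the 20 in the tables tested at D7 non-IR, D7 IR and D11 IR. Of these 3, 5 and 5 rose and 0, 1 and 1 fell. Of all tested genes, 33.3, 35.8 and 32.3% rose and 34.9, 39.7 and 31.6% fell. Low genes can pass the filter through their TGFB1 libraries. The counts of these cytokines, and of the chemokines and receptors below, therefore describe the genes and lend no weight to a direction. Il34 and Csf1 both encode ligands of the CSF1 receptor: Il34 rose by 2.81, 3.11 and 1.94 on the log2 scale, and Csf1 rose by 3.52 at D7 IR and 1.32 at D11 IR. Tnf, the prototype NF-kB-activating cytokine, rose by 1.19, 2.63 and 1.23. Csf2, which encodes the granulocyte-macrophage growth factor, rose by 1.96 at D11 IR. The gene that fell was Mif, which encodes macrophage migration inhibitory factor (-1.31 at D7 IR and -0.70 at D11 IR).

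Among 23 other chemokines, 6, 6 and 4 were tested, with 5, 4 and 3 higher and 1, 2 and 1 lower. The shares of all genes are those given for the other cytokines. Cxcl2, a neighbour of Cxcl1 that also draws neutrophils, rose by 1.47 at D7 non-IR and 1.82 at D7 IR. Cxcl10, an interferon-inducible chemokine, rose by 1.86 at D7 IR. Ccl25, which homes CCR9-bearing lymphocytes to the small intestine, fell in each state (-2.11, -0.58 and -2.35).

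Of 16 receptor and decoy genes, 5 were tested in each state: Il18r1, Il18rap, Il1rap, Crlf2 and Sigirr. Il18r1, the IL-18 binding chain, averaged 0.369, 0.390 and 0.384 FPKM with vehicle and 1.64, 2.01 and 1.72 FPKM with TGFB1 at D7 non-IR, D7 IR and D11 IR. Il18rap, the accessory chain, rose by 1.55, 1.97 and 1.26 on the log2 scale, and Il18r1 by 0.94, 1.11 and 0.96 (limma, each adjusted p under 0.05). Il1r1, the receptor of IL-1 alpha and of its antagonist, averaged 1.14 FPKM with TGFB1 at D11 IR (lowest library 1.05, highest 1.25) and at most 0.0880 FPKM in the other 5 groups. It was under the filter, so it has no limma value. Crlf2, a chain of the TSLP receptor, rose by 0.28 at D7 non-IR and 0.68 at D7 IR, with -0.01 at D11 IR (limma adjusted p 0.0148, 1.58e-06 and 0.941). Il1rap, the IL-1 receptor accessory chain, was lower at D7 non-IR (-0.23) and D11 IR (-0.41). Of the 5, 3, 3 and 2 rose and 1, 0 and 1 fell, beside the shares of all genes given for the other cytokines. Il18r1 averaged under 1 FPKM with vehicle in each state, so it was tested because of its TGFB1 libraries.

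Of 13, 14 and 13 genes of cytokine processing tested, 6, 9 and 5 rose and 5, 3 and 6 fell at D7 non-IR, D7 IR and D11 IR. At D7 non-IR and D11 IR these counts lie near the shares of all genes. Casp1, which cleaves pro-IL-18, was lower at D7 non-IR (-0.57), higher at D7 IR (0.60) and lower at D11 IR (-1.02). Casp4, a sensor of cytosolic lipopolysaccharide, had -0.43, 1.09 and -0.94 in the same order, each past the limma threshold. Gsdmd, the pore-forming gasdermin, rose at D7 non-IR and D7 IR (1.18 and 2.09), and Nlrp6, an epithelial inflammasome sensor, fell in every state (-1.05, -0.94 and -0.75). Casp4 at D7 non-IR and Nlrp6 at D11 IR are outside the largest 4 changes and are given to complete the states.

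Single-cell libraries gave the time course of TGFB1 in irradiated D8 organoids. They held 2218 to 4283 kept cells with medians of 6709 to 10441 UMIs per cell, and no 2 of the 7 libraries shared more than 1 barcode. Each time is 1 library, so there is no replicate check, and the intervals are exact Poisson at 95% and cover counting error only. Values are UMI counts scaled to the library total (CPM), which compare libraries and not genes.

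Il1rn and Cxcl16 were higher at 15 h and 24 h than at 0 h. Il1rn was 8.35 CPM (7.30 to 9.51) at 0 h, 6.65 (5.79 to 7.60) at 6 h, 32.0 (29.9 to 34.3) at 15 h and 78.8 (75.6 to 82.0) at 24 h, so 24 h was 9.43 times 0 h (8.23 to 10.8). Cxcl16 was 28.0, 34.2, 78.6 and 140 CPM at the same times, with 24 h at 4.99 times 0 h (4.62 to 5.40). These 2 were the members at least 2-fold higher at 24 h than at 0 h among the 4 with a mean of at least 5 CPM, against 5.44% of 10083 genes. The share of cells with a Cxcl16 UMI, after thinning each cell to 2000 UMIs, was 5.60% at 0 h, 5.66% at 6 h, 12.7% at 15 h and 20.2% at 24 h, and unthinned 15.9, 16.3, 33.9 and 58.6%. The thinned share for Il1rn was 0.853, 0.912, 3.63 and 7.17%, and the unthinned share 2.32, 2.17, 8.10 and 20.5%.

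The other members differed less between times or were rare. Ccl20 was 39.7, 34.7, 56.5 and 48.9 CPM and Il18 63.3, 77.3, 70.3 and 55.0 CPM at 0, 6, 15 and 24 h. Cxcl1 was 1.21, 1.05, 1.98 and 3.72 CPM, so that 24 h was 3.08 times 0 h (2.08 to 4.69). Il33 was 0.402, 0.432, 0.722 and 1.21 CPM, from 11 UMIs at 0 h and 37 at 24 h (ratio 3.00, 1.50 to 6.53). Cxcl5 was 0.208, 0.130, 0.418 and 0.425 CPM, with overlapping intervals, and Il1a had 0 UMIs at 0 h and 6 h, 3 at 15 h and 6 at 24 h. By the same Poisson interval, a count of 0 at 0 h allows up to 0.135 CPM.

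**Figure D3:**
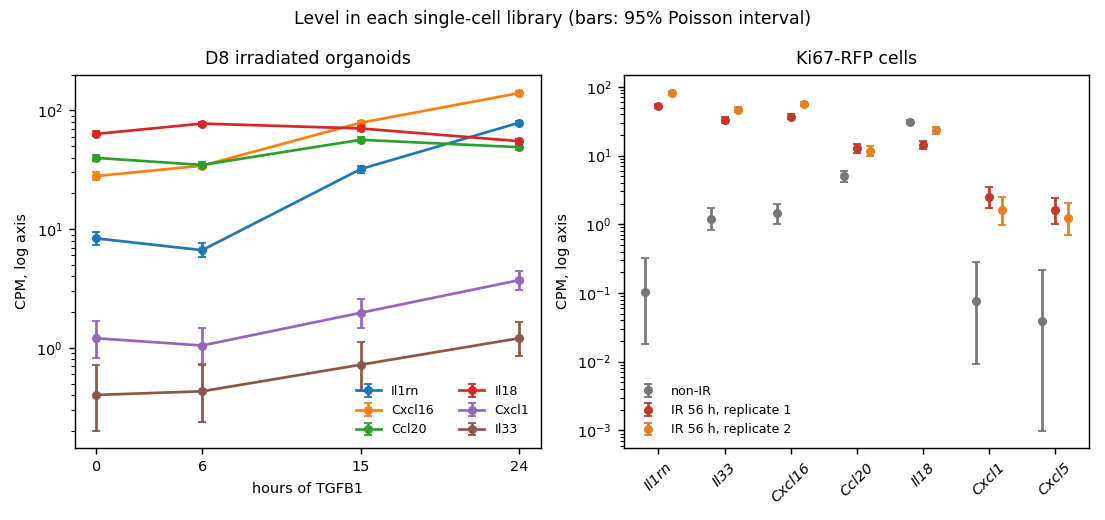
Members per single-cell library in CPM (log axis), with 95% Poisson intervals for counting error: left, irradiated D8 organoids by hours of TGFB1; right, Ki67-RFP+ crypt cells without irradiation (grey) and in 2 libraries 56 h after 12 Gy. Il1rn and Cxcl16 end highest on the left (78.8 and 140 CPM), and Il1rn, Il33 and Cxcl16 on the right lie above 30 CPM in both irradiated libraries against at most 1.44 CPM without irradiation.

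Cells were clustered without the member genes and without the other cytokine, chemokine and receptor genes, and the following cluster values are descriptions with no test. One organoid cluster, number 7 with 536 cells, was led by Ada, Tm4sf4, Lgals3, Anxa10 and small proline-rich genes. Its best-matching marker list was the regenerative one, with a median fold of 11.0 over 11 markers, and by that measure the cluster was regenerative-like. Of that list only Anxa1 was among its 10 leading genes. Il1rn, itself among its leading genes, was highest there: 146, 118, 375 and 542 CPM at 0, 6, 15 and 24 h. In the proliferation-like cluster 0 it was 1.22, 1.98, 9.27 and 18.5 CPM, and in enterocyte-like cluster 4 it was 0, 0.151, 1.72 and 4.91 CPM. Within each of these clusters the 24 h value was above the 6 h value, at very unequal levels. Cell numbers changed over the same time, from 1041 at 6 h to 69 at 24 h in cluster 0. They went from 971 to 183 in cluster 4 and from 142 to 156 in cluster 7. Whether the level changed within the same cells was not tested. A UMI was found in 69.2% of cluster 7 cells at 24 h (median depth 11046 UMIs) and in 8.20% of cluster 4 cells (14583 UMIs). Cluster 2, led by Thbs1, Cym, Clu and Edn1 and without a cell type name, went from 20.8 CPM at 6 h to 79.6 CPM at 24 h.

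Cxcl16 was also highest in cluster 7, with 249, 281, 410 and 468 CPM and a UMI in 83.7, 76.1, 88.1 and 91.7% of its cells, at median depths of 8726.5, 8088.5, 9590.5 and 11046 UMIs. Cluster 0 had 7.99, 20.3, 39.1 and 82.3 CPM and a UMI in 7.38, 15.2, 31.4 and 62.3% of its cells, whose median depth was 11143, 8775, 11108 and 19822 UMIs. The goblet-like cluster 8, which also held enteroendocrine genes among its leading genes, had a Cxcl16 UMI in 4.69, 4.76, 21.9 and 26.5% of cells at depths of 6387.5, 4689, 5331 and 5895.5 UMIs. Il1rn had no UMI in cluster 8 at 0 h and 6 h.

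Ccl20 ran in opposite directions in different clusters. In the stem-like cluster 1, led by Ung, Olfm4 and replication genes, it was 33.7 CPM at 0 h (28.5 to 39.5), 57.4 at 6 h and 136 at 15 h (121 to 153), with under 50 cells at 24 h. Cluster 1 has its name from a median fold of 2.66 over 7 stem markers. Its 10 leading genes held 1 marker of that list and 1 of another list. In cluster 7 Ccl20 was 83.4 CPM at 0 h (66.8 to 103), 12.8 at 6 h, 20.6 at 15 h and 11.7 at 24 h (7.91 to 16.7). Cluster 4 also went from 34.3 to 17.99 CPM. The total over all cells, given above, was higher at 15 h and 24 h than at 0 h and does not show these separate courses. Il18 was high in the enterocyte-like cluster 4, with 186, 225, 195 and 150 CPM, against 2.98 to 5.76 CPM in cluster 0. Cluster 4 has its name from a median fold of 3.84, with 0 enterocyte markers among its 10 leading genes. Other clusters also held Il18. At 15 h it was 97.4 CPM in cluster 7 and 69.4 CPM in the unnamed cluster 5. Over all times it was 64.3 CPM in the unnamed cluster 3. Il33 was sparse everywhere: cluster 7 had the most UMIs of any cluster, 34 in its 536 cells, with 5.75, 6.42, 4.52 and 5.08 CPM at the 4 times.

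**Figure D4:**
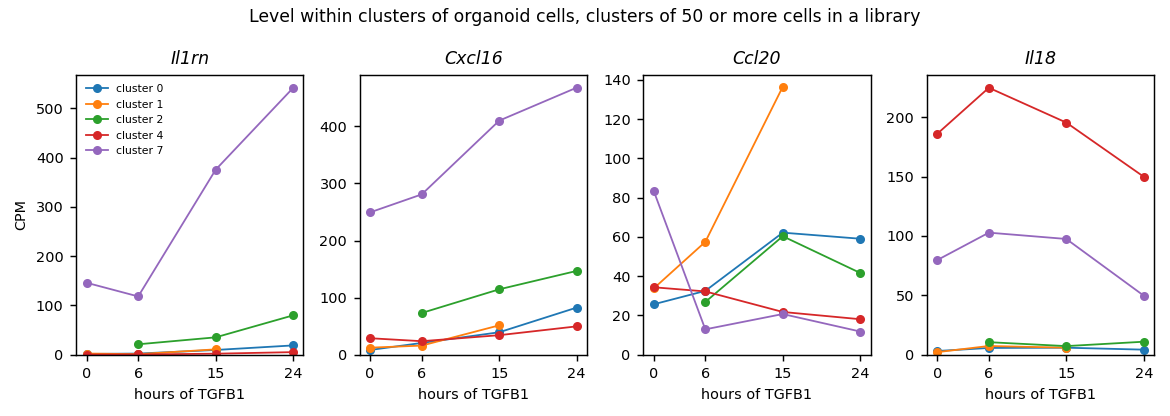
Il1rn, Cxcl16, Ccl20 and Il18 in CPM (linear axes from 0, a separate scale per gene) by hours of TGFB1 within 5 clusters of organoid cells; a point is shown where a library has at least 50 cells of the cluster. Cluster 7, led by Ada and Tm4sf4, is highest for Il1rn and Cxcl16 at every time, cluster 1 reaches 136 for Ccl20 at 15 h, and cluster 4, enterocyte-like, is highest for Il18.

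In sorted dividing crypt cells, Il1rn, Il33 and Cxcl16 were far higher in the libraries from irradiated animals. Il1rn was 0.102 CPM without irradiation (2.62 UMIs, and 0 when only whole-number entries are counted) and 52.4 and 80.4 CPM in the irradiated libraries, ratios of 514 (164 to 2918) and 789 (252 to 4474). Il33 was 1.20 CPM (0.817 to 1.71) against 33.1 (30.1 to 36.2) and 46.7 (42.9 to 50.6), ratios of 27.5 and 38.8. Cxcl16 was 1.44 CPM (1.01 to 1.98) against 36.7 (33.6 to 40.0) and 56.1 (52.0 to 60.4), ratios of 25.6 and 39.0. Of the 5 members with a mean of at least 5 CPM over the 3 libraries, 4 were at least 2-fold higher in both irradiated libraries, against 10.4% of 10364 genes, and these 3 were at least 10-fold higher, against 1.07%. These 4 were all under 5 CPM in the control and entered the count through the irradiated libraries, so the count describes them and supports no direction. The 2 irradiated libraries differed from each other by 1.53 times for Il1rn, 1.41 for Il33 and 1.53 for Cxcl16, beyond counting error but far less than from the control. With 1 control library the difference was not tested.

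Ccl20 was 4.97 CPM without irradiation and 12.7 and 11.7 CPM with it. Cxcl1 rested on 2 UMIs in the control (0.0776 CPM) and was 2.48 and 1.62 CPM after irradiation, ratios of 31.9 (8.18 to 274) and 20.9 (5.07 to 184). Cxcl5 rested on 1 UMI in the control and was 1.60 and 1.24 CPM, ratios of 41.2 (6.67 to 1698) and 32.0 (4.94 to 1341). Il18 was lower after irradiation, with 31.2 CPM (29.0 to 33.4) against 14.3 (12.3 to 16.4) and 23.2 (20.6 to 26.0). Il1a had 0, 1 and 1 UMI. Summed immune markers were 21.8 CPM without irradiation and 31.8 and 24.1 CPM with it, with 3, 3 and 2 of the 18 markers at 0. Summed endothelial markers were 6.84, 11.6 and 12.6 CPM, of which Pecam1 alone was 6.18, 10.7 and 11.6 CPM. Their part in the result was not tested.

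Most irradiated crypt cells lay in 3 clusters (9, 10 and 11) and most control cells in others, and no cluster held at least 50 cells of the control and of an irradiated library. Cluster 11, with 503 cells, was regenerative-like, led by Sprr2a1, S100a6, Clu and Ly6a, with Il1rn among its leading genes. Il33 was 77.1 and 78.9 CPM there in irradiated replicates 1 and 2, against 19.3 and 25.3 in cluster 9 and 16.2 and 14.3 in cluster 10. Cxcl16 was 71.2 and 91.5 CPM in cluster 11, 24.0 and 17.2 in cluster 9, and 22.6 and 31.3 in cluster 10. Il1rn was 133 and 137 CPM in cluster 11, against 16.7 and 28.7 in cluster 9 and 28.0 and 46.6 in cluster 10. The control clusters of at least 50 cells were lower for all 3 genes, the highest being the enterocyte-like cluster 2 with 3.74 CPM for Il33 and 3.96 CPM for Cxcl16. Ccl20 differed little between the 3 clusters (8.75 to 15.8 CPM).

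Il33 had unlike levels in the irradiated models of the series. It was 4.50-fold lower in D7 IR than in D7 non-IR vehicle organoids (4 Gy, collected 3 days later) and at 27.5 and 38.8 times the control in crypt cells 56 h after 12 Gy. Dose, time, culture and assay all differ between these, so the values stand side by side without a comparison. Il18 was 2.52 times higher in irradiated vehicle organoids at D7 and lower in irradiated crypt cells. Cxcl16 and Ccl20 were lower in irradiated than in non-irradiated vehicle organoids at D7, and higher in irradiated crypt cells. Il1rn was higher in both.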

How the data were processed

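Bulk RNA was deposited as FPKM, in 3 tables of 6 libraries. For single cells, the deposited matrices hold expected counts of UMIs, of which 8.67 to 22.0% per library stand in entries that are not whole numbers. PIPseq T2 kits were used, per the labels' protocols. The submitters' processing notes list TopHat2 2.1.0, Cuffnorm 2.2.1, STAR 2.7.10a and Salmon 1.4 without saying which made which file. The ATAC peak lists were not used here.

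FPKM were tested as log2(FPKM + 1) with limma 3.58.1 (trend, robust; R 4.3.3) for genes averaging 1 FPKM or more over the libraries in the fit, at an adjusted p under 0.05. The script was tested on simulated data. Members and lists were chosen with earlier results of these data known. All 9 members are named; of the other lists, up to 4 genes per comparison, by the largest change among called genes, and receptors or partners of members.

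Barcodes under 500 UMIs or 250 genes, or above 20% mitochondrial UMIs, were dropped. Intervals of ratios are from the exact binomial at 95% and cover counting error only. Clusters used scanpy 1.11.5 (2000 variable genes, 30 components, 15 neighbours, resolution 0.6) on counts rounded to whole numbers. Scrublet called 0.286 to 1.56% of cells doublets, and they were kept. Small RNAs or pseudogenes were among the leading genes of several clusters. Of these, organoid clusters 6, 11, 12, 13 and 14 were enterocyte-like and 10 was stem-like by their marker lists. Organoid cluster 9 and crypt cluster 10 were left unnamed. Alternatives were another pseudocount, filter, scaling, fit and fold limit, leaving out each library, a replicate block, other cell filters, and single-cell values from whole-number entries alone.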

Additional observations from a re-analysis of the deposited data

Results flagged for a closer look

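The TGFB1 effect differed between irradiated and non-irradiated D7 organoids, by an interaction term in limma, for Ccl20 (3.02), Il1rn (1.61), Cxcl16 (1.31), Il18 (0.98), Cxcl1 (0.74), Il1a (0.39) and Il33 (-1.65), on the log2(FPKM + 1) scale. It differed between D11 and D7 in irradiated organoids, by the same kind of test, for Il33 (2.85), Il18 (0.76), Ccl20 (-0.73), Cxcl1 (-0.75), Cxcl16 (-1.45) and Il1rn (-2.26). The D7 IR libraries enter both terms, so that a high TGFB1 effect at D7 IR raises the first and lowers the second. Standard errors ran from 0.0791 for Cxcl16 in the first term to 0.262 for Il18 in the second.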

How the results depend on the processing

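Of 542 recomputed differences of members in bulk RNA, 523 kept direction and side of the threshold, 13 lost the call, 6 gained it and 0 turned direction. Those that lost the call are given with the results. A member under the filter in a setting has no value there, so calls lost in that way are not among the 13. Without the filter, limma also called Cxcl5 at D7 IR (0.20, adjusted p 0.00279) and in the day term (1.73, 3.76e-07), and Tslp as lower at D11 IR (-0.08, 0.0251) and in the day term (-0.08, 0.0136).

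With a limit of at least 2-fold, 956, 1484 and 1574 genes were called for TGFB1 at D7 non-IR, D7 IR and D11 IR, 500 for the irradiation term and 1880 for the day term, in place of 7732, 8495, 7335, 6061 and 7387. Members called were then 4 for the irradiation term and 3 for the day term, and 5 at D11 IR with a mean of at least 5 FPKM. Leaving out 1 library gave 7218 to 7596, 8100 to 8265 and 6464 to 7591 genes for the 3 states, 5683 to 5914 for the irradiation term and 6937 to 7715 for the day term. Members called were 5 to 7, 6 to 7, 8 to 8, 7 to 7 and 5 to 7 in the same order. At D7 non-IR the loss came without a TGFB1 library, when Il1a or Cxcl1 averaged under 1 FPKM.

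Same-numbered libraries did not all deviate together (correlations of -0.0856 to 0.213), which does not settle whether they were paired. The highest correlation was that of the libraries numbered 2 at D7 non-IR (0.162) and D7 IR (0.213). At D11 IR it was that of vehicle library 2 with TGFB1 library 1 (0.204). With the replicate block, limma called 7701, 8417, 7351, 5964 and 7396 genes in the same order, and none of the 36 member differences changed its call.

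Of 252 recomputed single-cell CPM values, 29 left their Poisson interval, all 29 when only whole-number entries were counted. FPKM without read counts leave the depth unknown, so members under 1 FPKM are the least certain.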
